A study of Homo sapiens with 5 samples.

Results

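The 23905 replication origins that ini-seq 2 called in EJ30 nuclei after 3 hours were set against short nascent strand sequencing (SNS-seq) peaks of the same cell line, of which 147657 came from strands of 0.5 to 2 kb and 184966 from strands of 2 to 4 kb. All origins of the 3-hour list were taken, with the peaks of both fractions, which makes 356528 of the 366709 intervals deposited for the series. EJ30 is a human bladder carcinoma line. For ini-seq 2, nuclei held in late G1 phase with mimosine were incubated for 3 hours in cytosolic extract of HeLa cells with Br-dUTP, so that newly copied DNA carried 1 heavy strand and could be parted by density from DNA left uncopied. The efficiency of an origin is the heavy share of the reads over it, HL/(HL + LL), and was at least 0.8 for every origin called. For SNS-seq, nascent strands of EJ30 cells were parted by size on sucrose gradients, both pools were sequenced apart, and peaks were called against genomic DNA. Each side is thus a single list: the ini-seq 2 list pools 2 biological replicates, replicates of SNS-seq are not stated, none of the lists holds read counts, and no spread between replicates can be given. The initiation seen by ini-seq 2 is that of isolated nuclei in a foreign extract, whereas SNS-seq reads strands made in living cells. The 15-minute ini-seq 2 list and the genomic DNA library were not analysed here.

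A human chromosome begins replication at many origins, where the helicase loaded in G1 phase is activated in S phase and the DNA is unwound. Each new leading strand starts from an RNA primer near the origin, so a short nascent strand still lies close to the place where it began, and a longer one reaches further from it. SNS-seq takes advantage of the primer, which shields nascent strands from lambda exonuclease while broken DNA is digested, and the method is known for peaks at CpG islands and at G-rich sequence able to form G-quadruplexes (G4).

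The sequences below show both ends of the comparison. All lie outside annotated exons, are from hg38 and are printed 5′ to 3′. The first pair comes from origins of efficiency 1 that peaks of both fractions overlapped, at the start of USP6NL, which encodes a GTPase-activating protein of the RAB5 pathway, and of ZAR1, a gene of the early embryo. Capitals mark CpG dinucleotides, and the strand is that of the gene.
USP6NL, chr10:11611205-11611304, minus strand: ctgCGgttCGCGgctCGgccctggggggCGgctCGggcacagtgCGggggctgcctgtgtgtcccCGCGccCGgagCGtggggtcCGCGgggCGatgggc
ZAR1, chr4:48490152-48490251, plus strand: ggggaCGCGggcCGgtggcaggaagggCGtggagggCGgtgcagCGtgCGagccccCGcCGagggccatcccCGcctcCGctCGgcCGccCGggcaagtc
The 100 bases at USP6NL held 14 CpG and those at ZAR1 also 14. The next set was picked from among the most efficient origins of purine-rich sequence that had no peak of either fraction within 1 kb. They were chosen after their values were seen. Capitals here mark pyrimidines, and the purine-rich strand is printed.
ARHGAP19 intron, chr10:97251451-97251550, plus strand: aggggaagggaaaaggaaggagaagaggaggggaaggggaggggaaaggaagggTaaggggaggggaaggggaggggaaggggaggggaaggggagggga
CSRNP3 intron, chr2:165666751-165666850, plus strand: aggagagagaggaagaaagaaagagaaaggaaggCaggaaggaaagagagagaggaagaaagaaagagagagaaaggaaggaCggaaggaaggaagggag
intron of the non-coding gene ENSG00000227482, chr9:113678201-113678300, minus strand: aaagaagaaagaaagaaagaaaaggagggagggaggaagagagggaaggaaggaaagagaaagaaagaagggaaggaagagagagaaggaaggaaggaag
These stretches held 1, 2 and 0 pyrimidines in 100 bases. The efficiency of the 3 printed origins was 0.981, 0.978 and 0.957, so that all belonged to the most efficient class. An intergenic origin on chromosome 7 (chr7:44596901-44597200, efficiency 0.961) ranked above the last of them but is not printed. Its corresponding stretch held 3 pyrimidines in 100 bases, and its nearest peak was 1320 bp away.

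Peaks of the 2-4 kb fraction overlapped 91.3% of the 3-hour origins and peaks of the 0.5-2 kb fraction 77.98% (21823 and 18642 origins, exact 95% intervals 90.9 to 91.6% and 77.4 to 78.5%, overlap of at least 1 bp). As background, 7.34% of the 1 kb windows of hg38 without a 3-hour origin held a 2-4 kb peak, 5.29% held a 0.5-2 kb peak and 3.16% held both. Both fractions overlapped 18563 origins (77.7%), and the 2-4 kb fraction alone overlapped 3260 (13.6%). The reverse was rare, with 79 origins (0.33%) under the 0.5-2 kb fraction alone, and 2003 origins (8.38%) had no peak. Intervals of shares cover counting error only. The shares for the 2-4 kb fraction and for both rested largely on long peaks, the 0.5-2 kb share less so. Peaks of at most 2 kb overlapped 40.7% of the origins in the 2-4 kb fraction, 64.8% in the 0.5-2 kb fraction and 28.6% in both.

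The 4 patterns differed in kind. Origins under both fractions had a median efficiency of 0.892, a median length of 900 bp and a GC content of 68.1%, and 38.2% of them contained the start of a protein-coding gene. Origins under the 2-4 kb fraction alone had a median efficiency of 0.828, a length of 400 bp and a GC content of 63.8%, and 12.2% contained a coding start. The 79 origins under the 0.5-2 kb fraction alone comprised 63 low and 16 medium origins and 0 high ones. Origins with no peak had a median efficiency of 0.8395, above that of origins under the 2-4 kb fraction alone, and 41.0% of them were of medium efficiency. They were 400 bp long in the median with a GC content of 60.3%, and 5.29% contained a coding start.

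Which fraction overlapped an origin varied with its efficiency. From the lowest to the highest of 10 equal groups by efficiency, the share under both fractions went from 54.7% to 99.2%, while the share under the 2-4 kb fraction alone went from 30.3% to 0.42%. With the origins in 3 classes of equal size, low (efficiency 0.8 to 0.842), medium and high (0.907 to 1), both fractions overlapped 58.8%, 77.0% and 97.2%. The difference between the high and the low class was 38.3 percentage points over the genome. Taken for each of the 23 chromosomes 1 to 22 and X, it was 40.8 ± 8.62 points (SD over chromosomes), with the lowest value, 28.7, on chromosome 20, the highest, 63.7, on chromosome 18, and a positive sign on 23 of 23. For the 0.5-2 kb fraction the difference was 39.9 ± 8.18 points and for the 2-4 kb fraction 13.7 ± 5.82 points. All 44 origins of efficiency 1 had peaks of both fractions.

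**Figure D1:**
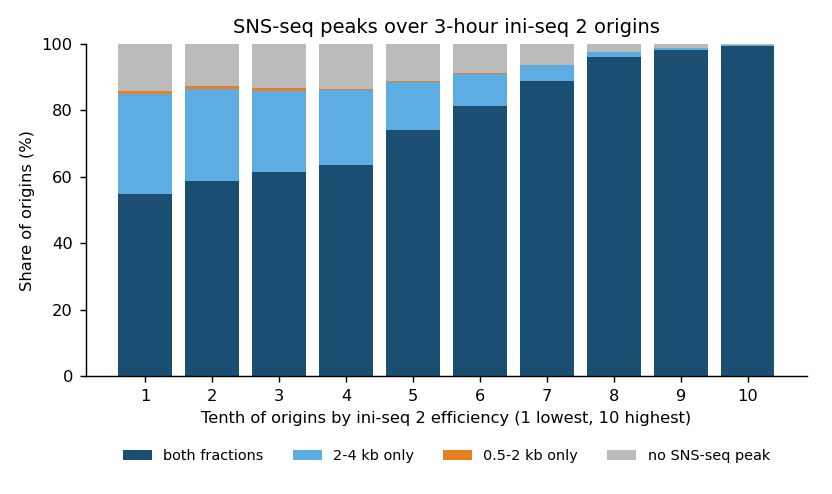
Share of the 3-hour ini-seq 2 origins (y axis, percent) under SNS-seq peaks of both fractions, of a single fraction or of neither, in 10 equal groups of rising efficiency (x axis). The share under both fractions goes from 54.7% in the lowest group to 99.2% in the highest, and the share under the 2-4 kb fraction alone goes from 30.3% to 0.42%.

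Efficiency moved together with GC content, whose median was 64.1% for low, 66.8% for medium and 71.3% for high origins, and with length. With classes formed within 10 groups of equal GC content, the difference between high and low origins was 4.997 points, and with classes formed within 10 groups of equal length it was 26.0 points. At a GC content of 60 to 65%, both fractions overlapped 53.2% (low), 62.1% (medium) and 60.5% (76 high origins). At 65 to 70% the shares were 77.1%, 86.3% and 97.2%, and at 70 to 75% they were 70.8% (48 low origins), 96.0% (medium) and 99.4% (high). At 60 to 65% the high origins thus did not exceed the medium. At 55 to 60%, both were found for 18.96% of 617 low origins, 16.6% of 265 medium ones and 0 of 26 high ones. A count of 0 allows up to 13.2% here (exact interval). High origins without any peak numbered 135, and 120 of them held more than 75% purines on a single strand. Such purine tracts, described below, are included in these shares, and shares by GC content and class without them were not computed. Among origins of 300 bp both fractions overlapped 32.8% of the low and 86.1% of the high class, and among those over 2000 bp 98.3% and 99.8%. Over the 23905 origins the rank correlation of the share of bases under 0.5-2 kb peaks was 0.60 with efficiency, 0.70 with GC content and 0.32 with length. In the 2-4 kb fraction these values were 0.40, 0.55 and 0.30. Origins share chromosomes and base composition, so these correlations are given as a description only.

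At equal GC content, windows with an origin held a peak more often than windows without. Among 1 kb windows of 60 to 65% GC, 85.2% of those with an origin held a 0.5-2 kb peak and 98.2% a 2-4 kb peak, against 39.9% and 66.7% of the windows with no origin within 5 kb. At 70 to 75% GC the shares were 99.6% and 99.9% with an origin and 27.1% and 33.9% without. At 75% GC and above, peaks of both lists were found in each of 1035 windows with an origin, but in 14.4% (0.5-2 kb) and 14.9% (2-4 kb) of the 382 windows far from one. Away from origins the share of windows with a peak was thus highest at 60 to 65% GC and lower on either side, whereas with an origin it was higher at each step. How many of the GC-rich windows without an origin could be mapped by short reads was not tested. Below 45% GC the order of the fractions turned in windows with no origin within 5 kb, where 3.94% held a 0.5-2 kb peak and 2.31% a 2-4 kb peak at 40 to 45% GC.

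**Figure D2:**
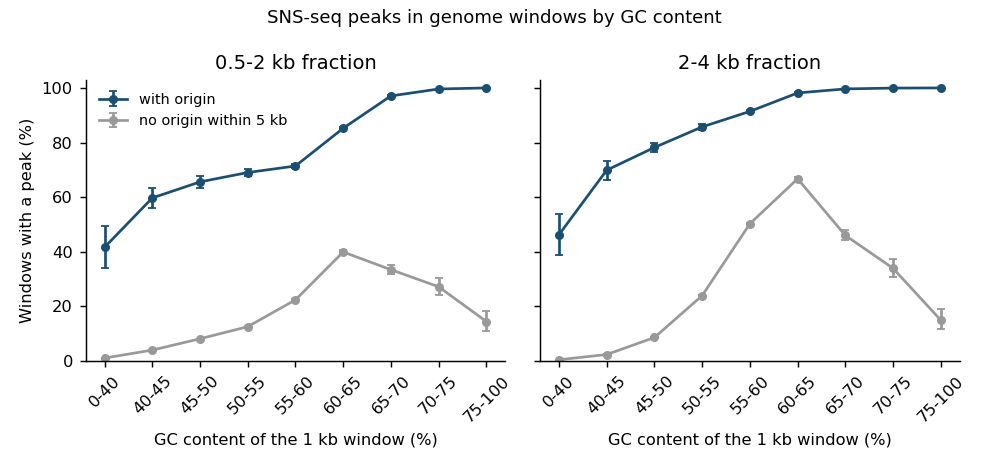
Share of 1 kb windows of hg38 with a peak (y axis, percent, bars are exact 95% intervals) by the GC content of the window (x axis, percent), for windows with a 3-hour origin and windows with no origin within 5 kb. With an origin both fractions reach 100% at the highest GC content, and without one the share is highest at 60 to 65% GC, with 39.9% (0.5-2 kb) and 66.7% (2-4 kb).

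The mean number of peaks per origin was close to 1 in both fractions. It was 1.01 ± 0.81 (SD over origins) for the 0.5-2 kb fraction and 0.993 ± 0.433 for the 2-4 kb fraction. These means take in origins with no peak and origins with several. A 0.5-2 kb peak was present at 18642 of 23905 origins, and at 4757 of the 7980 low ones. Of the origins with a peak 21.4% (0.5-2 kb) and 7.94% (2-4 kb) held several. Most of these were neighbouring pieces, since joining peaks within 500 bp of each other left 2.60% and 0.24% with several. In the 0.5-2 kb fraction several were held by 30.5% of the low origins with a peak, against 24.0% (medium) and 13.7% (high). At 400 to 500 bp the order was gone, with 7.26%, 7.59% and 7.45%, while over 2000 bp the shares were 80.5%, 64.96% and 44.6%. The highest number of 0.5-2 kb peaks was 9, reached by 6 origins, 5 of them outside chromosomes 8 and Y, of which the 3 taken by position are described. One spanned 14200 bp of JAG2, which encodes a Notch ligand, at an efficiency of 0.829, and 2 peaks of the 2-4 kb fraction covered 98.7% of it. Another spanned 11800 bp of the kinase gene AATK, and the last lay over the non-coding gene ENSG00000250259. The most 2-4 kb peaks, 6 each, were found over ADAM11 and KCTD17, both origins of low efficiency (0.809 and 0.801), and 5 other origins held 5, among them an intron of the phospholipase gene PLCH2, taken by position, which had no 0.5-2 kb peak.

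Efficient origins were covered almost whole. On average 0.5-2 kb peaks covered 37.5% of the bases of a low origin, 62.2% of a medium and 92.0% of a high one. The 2-4 kb peaks covered 74.6%, 84.5% and 97.7%. The high origins exceeded the low by 56.0 ± 5.89 points in the 0.5-2 kb fraction and by 25.04 ± 6.63 points in the 2-4 kb fraction (SD over 23 chromosomes), on all 23. Full coverage by 0.5-2 kb peaks was found for 10.2% of the low and 68.1% of the high origins. The gap varied with origin length. At 300 bp the 2-4 kb means were 61.0% (low) and 89.7% (high), but over 2000 bp they were 95.5% and 98.9%. The 0.5-2 kb means were 23.1% and 80.8% at 300 bp, and 65.6% and 92.2% over 2000 bp. Coverage by class at equal GC content is not given here.

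Taken over all origin lengths, the peaks were longer at more efficient origins, the shorter fraction more so in proportion. At the 18563 origins with both, the nearest 0.5-2 kb peak had a median length of 524 bp (low), 1049 bp (medium) and 1572 bp (high). The nearest 2-4 kb peak measured 2214, 2477 and 2598 bp. The median ratio of the 2-4 kb to the 0.5-2 kb peak was accordingly 3.14, 2.19 and 1.61. The 2-4 kb peak was the longer at 97.2% of these origins, and the 0.5-2 kb peak lay nearer to the origin centre at 64.6%. High origins were themselves longer, with a median of 900 bp against 600 bp for low ones, and richer in GC. Over origins with a peak, the rank correlation of 0.5-2 kb peak length was 0.45 with efficiency, 0.49 with GC content and 0.39 with origin length. For 2-4 kb peaks these values were 0.23, 0.32 and 0.48. Among origins over 2000 bp with a 2-4 kb peak, it measured 4915 (low), 5102 (medium) and 4148 bp (high). At 1100 to 2000 bp the values were 2597, 3052 and 2922 bp. In the shorter length groups the 2-4 kb order held, and the 0.5-2 kb order held in all of them. At the start of TOP1, the gene of DNA topoisomerase I and the site of a long-studied origin, the called origin on hg38 (chr20:41028401-41029700, plus strand, holding 5′ UTR and coding sequence) had an efficiency of 0.953. It lay whole under a 0.5-2 kb peak of 1540 bp centred 99 bp downstream of the origin centre and under a 2-4 kb peak of 2599 bp centred upstream, at -392.5 bp. At LMNB2, a lamin B gene with a classical origin at its 3′ end, no 3-hour origin contained the annotated start, but an origin of efficiency 0.861 (chr19:2423501-2428000) spanned the 3′ end on the minus strand. A single 0.5-2 kb peak overlapped it and covered 97.0% of its bases, and a single 2-4 kb peak covered it whole. Of 7 origins in or within 5 kb of this gene, looked up after other values were seen, 6 had peaks of both fractions and the remaining origin, at chr19:2445201-2445500, had none.

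Long peaks also joined neighbouring origins. In the 2-4 kb fraction 3245 origins (14.9% of those with a peak) shared a peak with another origin, and in the 0.5-2 kb fraction 776 (4.16%). The widest sharing was a 2-4 kb peak of 28007 bp on chromosome 16 (chr16:543057-571063) that held 9 origins, 4 of high and 5 of medium efficiency, over CAPN15, PRR35, PIGQ and NHLRC4. By contrast, a 2-4 kb peak over GPSM1 on chromosome 9 held 7 origins, 6 of them of low efficiency. Among 0.5-2 kb peaks none held more than 4 origins. At HIC1, the gene of a transcriptional repressor, with SMG6 on chromosome 17, the peak measured 7093 bp and 3 of the 4 origins were of high efficiency. Over SPSB3, NUBP2 and IGFALS on chromosome 16, 2 of 4 were high. At SBNO2 on chromosome 19, 3 of 4 were of low efficiency and none of high. Seen from the peaks, 4.49% of the 0.5-2 kb peaks under 300 bp overlapped an origin, compared with 97.2% of those of 4000 bp and over. For the 2-4 kb fraction the corresponding shares were 1.62% and 88.6%.

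Distances were measured to the overlapping peak whose centre was nearest to the origin centre, a choice that itself keeps them short. No reference placement was computed. The peak centre lay inside the origin at 85.61% (0.5-2 kb) and 66.65% (2-4 kb) of the origins with a peak. The centre of the nearest 0.5-2 kb peak lay 170 bp from the origin centre in the median, and that of the 2-4 kb peak 247 bp. In the 0.5-2 kb fraction this distance was 207 bp at low and 141 bp at high origins, although the peaks at high origins were longer. Among origins of 300 bp the order was turned, with 131.5 bp (low) and 146 bp (high), while in each longer group the distance was smaller at high origins. Read along the plus strand of the genome the median displacement was -8.5 bp for the 0.5-2 kb fraction (95% interval -12.5 to -4) and -1.5 bp for the 2-4 kb fraction (-7 to 4.5).

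Along the gene the 2-4 kb peaks were displaced slightly downstream. At the 6915 origins that contain coding starts of a single strand, the median displacement was 29 bp downstream for the 2-4 kb fraction (20.5 to 41) and 10.5 bp for the 0.5-2 kb fraction (4 to 17.5). The chromosome medians were downstream on 22 of 23 chromosomes in the 2-4 kb fraction and on 17 of 23 in the 0.5-2 kb fraction. Of the peaks that were not exactly centred, 53.9% and 52.0% lay downstream. Along the plus strand of the genome, the 2-4 kb displacement was 25.5 bp at plus-strand genes and -33.75 bp at minus-strand genes. The 0.5-2 kb displacement was 4 bp (-3.5 to 14) at plus-strand and -17 bp (-25 to -9.5) at minus-strand genes, and the 10.5 bp along the gene were about as large as the -8.5 bp that this fraction showed over all origins without regard to genes. These displacements were small beside the quartiles, which lay at -175 and 256 bp in the 2-4 kb fraction. The 2-4 kb value was 13 bp at origins with no other origin within 10 kb, 15 bp with peaks of at most 2 kb, and 5.5 bp (interval -13.5 to 23.6) for the centre of all peaks within 5 kb. At the 10165 origins inside coding genes of a single strand that contain no gene start of any kind, the displacement was upstream, -22.5 bp in the 2-4 kb and -8.5 bp in the 0.5-2 kb fraction.

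**Figure D3:**
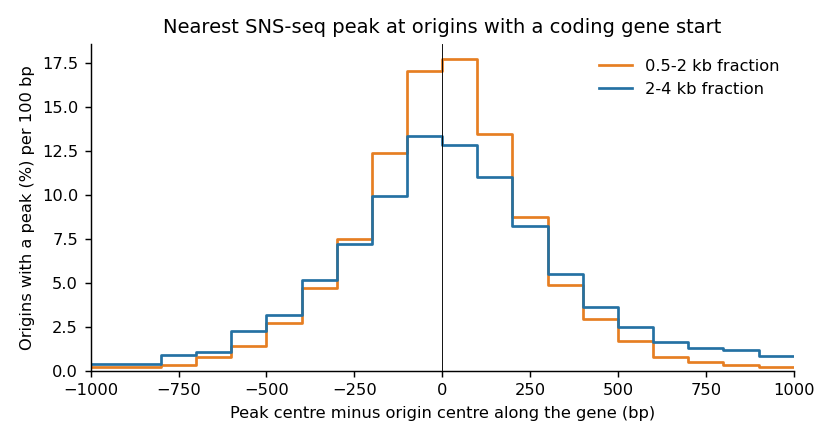
Position of the centre of the nearest overlapping SNS-seq peak relative to the origin centre (x axis, bp, positive values downstream along the gene) at origins with coding starts of a single strand, counted in bins of 100 bp (y axis, percent of the origins that have a peak). The 0.5-2 kb fraction is the narrower, and the medians are 10.5 bp (0.5-2 kb) and 29 bp (2-4 kb) downstream.

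The peaks were next placed relative to the gene start. For distances between centres, the peak used is the overlapping one nearest to the origin centre, a choice that favours closeness to the origin. The origin centre was 168.5 bp downstream of the start in the median, and the 0.5-2 kb peak centre was nearer to the origin centre than to the start at 68.9% of 6458 origins with both fractions, the 2-4 kb peak centre at 65.2%. Reach was taken from the outer edges of all overlapping peaks of a fraction, with any gaps between them included. In the median the 0.5-2 kb peaks reached 222 bp beyond the upstream and 242 bp beyond the downstream edge of the origin. The 2-4 kb peaks reached 568 and 619 bp. This outer span of the 0.5-2 kb peaks contained the whole origin at 26.9% of the low and 80.1% of the high origins of this set. For the 2-4 kb peaks the shares were 69.2% and 98.1%. Around the origin centre the share of origins under a peak stayed above 50% of its maximum over 1800 bp for the 0.5-2 kb fraction and over 3200 bp for the 2-4 kb fraction, while the origins themselves spanned 1000 bp. From 2 to 5 kb away the flanks of low origins of this set carried more peaks than those of high ones: 16.0% against 7.77% downstream in the 0.5-2 kb fraction and 33.7% against 24.5% in the 2-4 kb fraction. Other origins also covered 8.67% of these flanks at low and 2.01% at high origins. Among all origins with no other within 10 kb, read along the plus strand, the 2-4 kb order was turned, with 15.1% upstream and 14.5% downstream at low against 15.6% and 15.4% at high origins, and the 0.5-2 kb values were 5.10% and 5.02% against 3.52% and 3.47%.

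**Figure D4:**
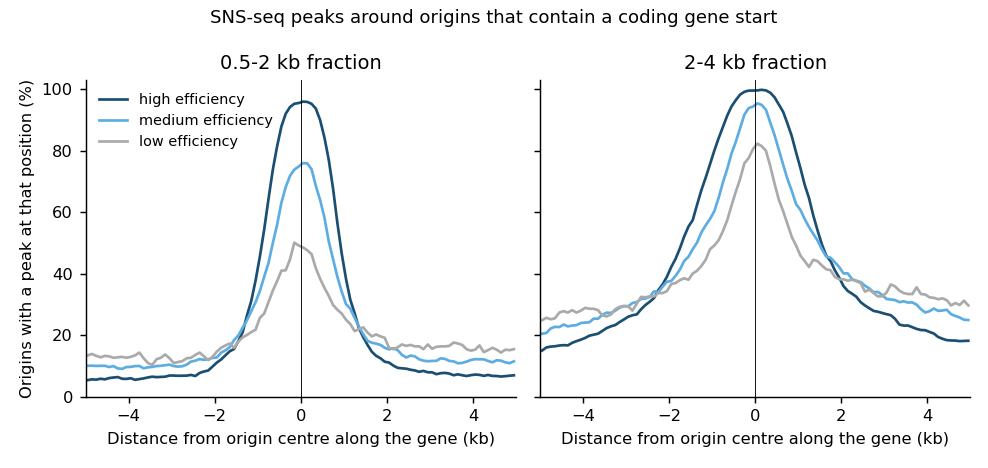
Share of origins with a peak (y axis, percent) by distance from the origin centre along the gene (x axis, kb), for origins with coding starts of a single strand in 3 efficiency classes. Within 50 bp of the centre the 0.5-2 kb share is 48.8%, 75.4% and 95.7% from low to high efficiency, and the 2-4 kb share is 81.4%, 94.8% and 99.5%.

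G4 motifs (4 runs, each of 3 or more G, parted by loops of 1 to 7 bases) gave another orientation. At the 10357 origins with motifs on a single strand, the 0.5-2 kb peaks were displaced by 16 bp (8.5 to 22.5) in the 3′ direction of the G-rich strand, with a positive median on 21 of 23 chromosomes. For the 2-4 kb peaks the displacement was 2 bp (-6 to 10) and positive on 12 of 23, so no direction could be read. The 0.5-2 kb value was 17.5 bp where the origin contained no gene start of any kind, and 11.5 bp at origins with no other within 10 kb. It was small beside the quartiles, -145.5 and 175.9 bp, and 52.4% of the peaks not exactly centred lay on the 3′ side. By class the median was 31.5 bp (14.5 to 51.5) at low, 6.5 bp (-6.5 to 18.5) at medium and 16 bp (7 to 23.5) at high origins.

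Coding starts within origins lay under peaks more often than starts elsewhere. Of 8524 coding starts in an origin, 81.7% lay under a 0.5-2 kb and 95.6% under a 2-4 kb peak, against 13.6% and 27.0% of the 8940 starts with no origin within 1 kb. Origins with a coding start were also the better covered within a class: both fractions overlapped 71.4% of low origins with starts of a single strand and 57.5% of low origins without a start, and 99.3% and 94.6% of high ones. Over all classes, origins with starts of a single strand were longer than those without (median 1000 against 600 bp). Their GC content was higher, 69.35% against 66.05%, and the contrast at equal length and GC content was not computed. Of origins of at least 500 bp with starts of a single strand and both fractions, the 5 of highest efficiency (ties taken by position) all reached 1. They lay at USP6NL, at GRID1, which encodes a glutamate receptor subunit, at the kinase gene SLK, at ZAR1, and at ARHGAP4 with NAA10, the catalytic subunit of the main N-terminal acetyltransferase. At SLK the peaks of both fractions were of almost the same size, 1785 and 1890 bp, whereas at GRID1 2 peaks of 829 and 1174 bp lay under a 2-4 kb peak of 6483 bp.

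Few efficient promoter origins lacked a peak. The most efficient origin with a coding start and no peak within 1 kb was that of ZNF322, a zinc finger gene, at 0.926, with the nearest 0.5-2 kb peak 27529 bp away. It was the only one in the high class, and those at WDR11 (0.891), RAB5C (0.888), a small GTPase of early endosomes, ZNF691 (0.888) and the formin gene DIAPH3 (0.882) were of medium efficiency. Their GC content of 64.0 to 66.0% lay below the 68.1% median of origins under both fractions. Among origins under the 0.5-2 kb fraction alone, those of highest efficiency were at the pseudogene PIP5K1P2 (0.905), at NDUFA8 (0.888), which encodes a subunit of respiratory complex I, in 2 intergenic stretches on chromosomes 16 and 12, and in an intron of RSPH9. Under the 2-4 kb fraction alone they were an intergenic origin on chromosome 14 (0.992), the start of ZNF449 (0.980), an intron of MRFAP1P1, exons of LAMP3, which encodes a lysosomal membrane protein, and the overlap of DNAH3 with LDAF1.

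Gene groups followed the same order of fractions with 1 exception. Over all 20033 coding genes 42.55% of the starts lay in an origin, and of the 7596 origins with a coding start 57.5% were of high efficiency, 93.3% had a 0.5-2 kb and 98.5% a 2-4 kb peak. Of 55 genes of the replication machinery 35 (63.6%) had their start in an origin, 23 of them of high efficiency, and peaks overlapped 29 (0.5-2 kb) and 34 (2-4 kb) of the 35 origins, among them those of MCM2 and MCM6 of the replicative helicase and of PCNA, the sliding clamp. Of 88 cytosolic ribosomal protein genes, paralogues included, 35 (39.8%) had an origin, of which 30 and 34 had peaks. Of 79 mitochondrial ribosomal protein genes 36 (45.6%) had an origin, of which 24 and 33 had peaks. The 15 origins at the starts of 39 HOX genes (38.5%) had peaks in 14 and 15 cases, and their 2-4 kb peaks had a median length of 3375 bp. Of 246 zinc finger genes of chromosome 19, 73 (29.7%) had an origin, of which 61 and 71 had peaks. None of the 416 olfactory receptor genes had an origin at its start, and 5 and 7 of these starts lay under a peak. For replication-dependent histone genes, which are expressed in S phase, 3 of 69 starts lay in an origin. Of the 65 with no origin within 1 kb, 41 (63.1%) lay under a 0.5-2 kb and 14 (21.5%) under a 2-4 kb peak, the reverse of the 13.6% and 27.0% over all such coding starts. H4C1 and H3C2 were among those under the 0.5-2 kb fraction alone, and H1-4 lay under both. How reads divide among these near-identical genes was not tested.

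Origins of purine-rich sequence seldom lay under an SNS-seq peak. A purine tract is here an origin with more than 75% purines on a single strand, a limit chosen after the values were seen. Of the 771 purine tracts 89.8% had no peak (692 origins, 87.4 to 91.8%), compared with 5.67% of the other 23134 origins. The tracts made up 34.6% of the 2003 origins without a peak. Both fractions overlapped 19 tracts (2.46%) and the 2-4 kb fraction alone 59 (7.65%). The share without a peak was higher at each step of purine content, from 4.70% at up to 60% purines to 12.1% at 60 to 65%, 23.8% at 65 to 70%, 45.9% at 70 to 75%, 78.1% at 75 to 80% and 91.4% above 80%.

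**Figure D5:**
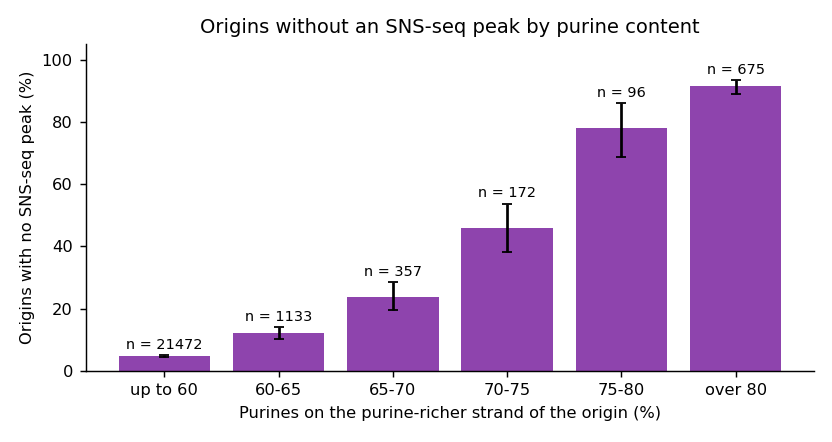
Share of 3-hour origins with no SNS-seq peak of either fraction (y axis, percent, bars are exact 95% intervals) by the purine content of the purine-richer strand (x axis, percent), with the number of origins above each bar. The share goes from 4.70% of 21472 origins at up to 60% purines to 91.4% of 675 origins above 80%.

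This held at all efficiencies, with no peak at 84.4% (low), 91.2% (medium) and 88.9% (high) of the tracts. Of the 135 origins of high efficiency without a peak, 120 were tracts, with a median purine content of 95.8%, and none of the 120 contained a coding start. Without the tracts 0.19% of the high origins had no peak and both fractions overlapped 98.8%. Tracts had a lower GC content (median 53.7%) and were shorter (400 bp) than other origins, but within 60 to 65% GC 86.2% of 94 tracts and 11.9% of 5734 other origins had no peak, and among origins of at most 500 bp 92.1% and 13.9%. At 65% GC and above 48.6% of 37 tracts had no peak, against 1.69% of other origins. The contrast was smaller at low GC content, where most other origins also lacked a peak. Below 50% GC 94.7% of 190 tracts and 83.3% of 18 other origins had none. At 50 to 55% GC the shares were 93.6% of 249 and 79.3% of 58, and at 55 to 60% they were 89.6% of 201 and 40.7% of 707. Within 5 kb, 436 of the 771 tracts had a peak. Of the tracts 2.59% had a 0.5-2 kb and 10.1% a 2-4 kb peak. In the genome at large, 300 bp windows with more than 75% purines lay under such peaks in 1.84% and 7.93% of 18306 cases where they overlapped no origin, in 4.64% and 20.4% of the 5413 of these with at least 50% GC, and in 15.3% and 31.0% of 1883 cases where they overlapped an origin. Alignment of short reads to such repetitive sequence was not tested.

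The tracts printed above are examples. The ARHGAP19 origin (chr10:97251301-97251700) held 99.0% purines and 11 G4 motifs on the plus strand, and its nearest 0.5-2 kb peak was 4888 bp away. The CSRNP3 origin (chr2:165666601-165667000) held 97.0% purines, no G4 motif and a GC content of 44.5%, with the nearest peak at 14235 bp. Tracts with many G4 motifs and tracts with none were thus both among the most efficient without a peak. Of the 15 origins of high efficiency that had no peak and were no tract, 1 contained a coding start.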

How the data were processed

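Sites of replication initiation were listed for EJ30 cells by ini-seq 2 (3-hour reaction) and by SNS-seq in 2 size fractions. For ini-seq 2 the authors aligned reads to hg38 with Bowtie2, scaled the HL and LL reads of 100 bp windows by library totals, merged windows whose log2 ratio reached 2 across gaps of up to 500 bp, and called islands with an efficiency of at least 0.8. The deposited efficiency is a fraction from 0.8 to 1, although its column is headed as a Z-score. SNS-seq peaks were called by the authors in MACS2 with EJ30 genomic DNA as input and parameters not given in the sources used here. The deposited lists hold positions only. Peak starts were taken as 0-based. No list holds counts, so the depth behind each interval is unknown here.

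Overlap required 1 bp. The peak whose centre was nearest to the origin centre gave distance and length, chromosome Y was left out of values by chromosome, and genes came from GENCODE 44. Each side is 1 list, so no test was made: shares carry exact Clopper-Pearson 95% intervals, medians order-statistic 95% intervals, and differences their SD over chromosomes. Origins were split into 3 equal classes by efficiency, as in the methods. Origins were named by rank of efficiency or peak number within each pattern, and shared peaks by the number of origins spanned, outside chromosomes 8 and Y. Single genes within gene groups were picked as examples after their values were seen. The members, lists and comparisons were chosen with earlier results of these data known. Alternatives covered overlap, origin and peak length, isolation, GC and length groups, and chromosome sets. The interval functions were tested on simulated data. Python 3.11.15, numpy 2.4.6, pandas 2.3.3, scipy 1.17.1 and matplotlib 3.10.9 were used. The 15-minute list and the genomic DNA library were not used.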

Additional observations from a re-analysis of the deposited data

How the results depend on the processing

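The shares of origins overlapped by the 0.5-2 kb fraction, the 2-4 kb fraction and both were 85.1%, 94.1% and 84.6% when a peak within 1 kb sufficed, 66.7%, 87.1% and 66.5% when peaks had to cover at least 50% of the origin, 69.2%, 87.6% and 68.7% among origins of at most 1 kb, 64.8%, 40.7% and 28.6% with peaks of at most 2 kb, and 80.5%, 94% and 80.2% without purine tracts, a setting added after seeing the data. At origins isolated by 10 kb the 2-4 kb share was 88.7%. The difference between high and low origins was 26 points with classes formed within length groups, 4.997 within GC groups, 24.7 for a peak within 1 kb, 57 for coverage of at least 50%, and 53.4 for origins with no other within 10 kb. It kept its sign under each of these, on the autosomes alone and without purine tracts. Origins with several 0.5-2 kb and 2-4 kb peaks made up 2.6% and 0.24% after joining peaks within 500 bp, 14.9% and 3.53% when the peak centre had to lie in the origin, and 10.7% and 6.06% among origins of at most 1 kb. The mean share of bases covered was 55.9% and 80.4% at origins of at most 1 kb, and 49.3% and 34.1% with peaks of at most 2 kb. Along the gene, all peaks within 5 kb gave a median of 24 bp (0.5-2 kb) and 5.5 bp (2-4 kb), and the 2-4 kb value was 15 bp with peaks of at most 2 kb and 13 bp with no other origin within 10 kb. Along the G-rich strand, the 2-4 kb displacement turned from 2 bp to -3.5 bp for the length-weighted centre and to -0.75 bp at origins with no other within 10 kb. The absolute distance was 162 bp and 154 bp with peaks of at most 2 kb, and 148 bp and 217 bp at origins of at most 1 kb. Of 70 recomputed values 29 stayed within the interval or chromosome SD of the first value, and the cause of the other shifts was not tested. No paired analysis was possible because each side is a single list without replicates. Depth behind each interval is unknown, so an origin without a peak may have been too thinly read.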
